A study of Mus musculus with 6 samples.

Results

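Creatine kinases and the adenylate enzymes of muscle were examined in C2C12 cells after knockdown of Cd36, as 9 genes found by their symbol among the 55450 genes of the deposited table, namely Ckm, Ckb, Ckmt1, Ckmt2, Ak1, Ampd1, Ampd3, Slc6a8 and Gatm. C2C12 is an established mouse muscle cell line that fuses into myotubes when serum is lowered. RNA-seq was performed on 3 samples with siCD36, small interfering RNA against Cd36, and 3 samples with siCont, a control RNA, each at 20 nM and 72 h after transfection by the methods of the study, which describe the cells as differentiated myotubes without a palmitic acid load. The labels call the cells myoblasts of skeletal muscle, give the strain as C57BL/6 for both groups, and leave unstated which siCD36 duplex, of the 2 in the methods, each sample received. The methods of the study name C57BL/6 for its mice and give no strain for the C2C12 cells. The study describes its plotted values as coming from independent experiments, but neither the labels nor the sequencing methods say that the libraries were separate cultures, so part of the spread behind the p-values may be technical.

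Muscle stores the energy of ATP as phosphocreatine. Creatine kinase moves the phosphate in both directions, with cytosolic isoforms at the myofibrils and mitochondrial isoforms next to the sites where ATP leaves the mitochondrion. Creatine itself is made in steps that begin with GATM and is taken up through the transporter SLC6A8. When ATP is spent faster than it is restored, adenylate kinase makes ATP and AMP from ADP, and AMP deaminase removes the AMP and so feeds the purine nucleotide cycle. Differentiating muscle is known to switch from the brain-type to the muscle-type cytosolic creatine kinase.

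Each library held 56907806 to 71878709 counts, of which the 9 genes made up 0.127% to 0.197%. Cd36 had 38, 32 and 30 raw counts in the siCD36 samples, against 1010, 1129 and 1103 in the siCont samples. By the quasi-likelihood test of edgeR this was a difference of -5.26 on the log2 scale (SE 0.167, adjusted p = 2.95e-04). Markers of myotubes were abundant, with 25 of 25 passing the filter of a mean of at least 1 FPKM. Of 6 markers of macrophages or endothelium, 5 did not pass this filter. Among these, Adgre1 and Ptprc, which mark macrophages and other blood cells, were at or near 0. Tek, a marker of the same set, passed the filter and is given below with the other marker sets. Transcripts of the mitochondrial genome took 7.86% to 8.22% of counts with siCD36 and 6.20% to 8.22% with siCont. By edgeR at an adjusted p under 0.05, 260 genes were higher and 361 lower with siCD36. Without siCD36 replicate 1 these counts were 431 and 650, and without siCD36 replicate 2 they were 5 and 15.

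The sequences upstream of 3 creatine kinase genes are shown because they belong to the muscle isoforms with the lowest fold changes among the members, Ckm and Ckmt2, and to the brain isoform Ckb, whose fold change was above 0. Each line gives the 250 bases before the RefSeq start site on the strand of the gene, from 5′ to 3′ (build GRCm38.p6). Capitals mark matches on either strand to the E-box, CANNTG, the letters bound by myogenic factors such as MYOD1 and MYOG, or to the MEF2 site.
Ckm (chr7:19410844-19411093, plus strand): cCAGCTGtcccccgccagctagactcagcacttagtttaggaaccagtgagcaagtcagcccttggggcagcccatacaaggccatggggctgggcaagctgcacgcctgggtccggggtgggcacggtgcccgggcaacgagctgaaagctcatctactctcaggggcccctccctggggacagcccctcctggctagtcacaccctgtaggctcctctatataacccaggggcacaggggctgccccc
Ckmt2 (chr13:91876886-91877135, minus strand): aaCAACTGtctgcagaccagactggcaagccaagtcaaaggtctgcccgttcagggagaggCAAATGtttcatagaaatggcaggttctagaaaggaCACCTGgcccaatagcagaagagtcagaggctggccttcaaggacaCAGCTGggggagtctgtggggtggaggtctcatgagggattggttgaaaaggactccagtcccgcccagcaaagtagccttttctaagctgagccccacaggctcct
Ckb (chr12:111672339-111672588, minus strand): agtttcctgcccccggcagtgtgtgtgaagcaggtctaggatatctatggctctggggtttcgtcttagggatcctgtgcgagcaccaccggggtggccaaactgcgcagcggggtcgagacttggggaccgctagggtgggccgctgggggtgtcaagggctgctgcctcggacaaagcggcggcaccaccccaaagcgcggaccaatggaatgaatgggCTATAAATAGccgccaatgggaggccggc
The Ckm stretch held 1 E-box, which begins at position -249 from the start site and reads CAGCTG. The Ckmt2 stretch held 4 E-boxes, of which the one nearest to the start site, at position -107, has the same letters. The Ckb stretch held no E-box and 1 match to the MEF2 site, at position -29, which overlaps the TATA box letters TATAAA. Among 32851 RefSeq promoters, the same 250 bases held an E-box in 66.2%, CAGCTG in 13.0%, a MEF2 match in 2.92% and TATAAA in 12.4%. Of the 9 genes, 7 had an entry in the table of promoters. These 7 had 13 promoters, of which 9, from 5 genes, held an E-box. The 5 genes included Ak1, Ampd3 and Gatm besides Ckm and Ckmt2. For Ak1, Ampd3 and Gatm the log2 fold changes were -0.21, -0.05 and -0.21, with edgeR intervals that included 0. An E-box was thus not particular to Ckm and Ckmt2, and a link between these motifs and the fold changes was not tested. The RefSeq start site of Ckm lies 6318 bases inside the gene as the deposited table draws it.

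Across the 6 libraries, Ckm was the most abundant of the 9 transcripts, and Ckmt1 was hardly present. In FPKM, a scale per length of transcript and per depth, the mean over the 6 libraries was 267 for Ckm, 107 for Ak1, 56.3 for Ckb, 22.8 for Slc6a8, 16.1 for Ampd3, 10.8 for Ckmt2, 9.08 for Gatm, 5.26 for Ampd1 and 0.00708 for Ckmt1. From Ckm down to Slc6a8, the 6 values of each gene lay above all 6 of the next. The values of Slc6a8, 18.3 to 30.3 FPKM, lay above those of Ampd3, 14.4 to 17.6 FPKM. The order of Ampd3, Ckmt2 and Gatm was not fixed, since Ampd3 exceeded Ckmt2 in 5 of 6 libraries and Ckmt2 exceeded Gatm in 4 of 6.

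No member passed edgeR at an adjusted p under 0.05 among the 8 that were tested, while 2.2% of the 11796 tested genes were called higher and 3.06% lower with siCD36. At an unadjusted p under 0.05 there were 2 members, Ckm and Ckmt2, both lower, against 25.4% of all tested genes in either direction. DESeq2 called 1 member, Ckmt2, where it called 14.2% of all tested genes, 6.51% higher and 7.71% lower, and limma called 0, both with voom and on log2(FPKM + 1). Of the 8, 7 had a log2 fold change below 0 and their median was -0.15, beside a median of 0.00 over all tested genes. One member, Ckmt2, was lower in every siCD36 library than in any siCont library on the scale of CPM (counts relative to the TMM-adjusted library size), as were 16.3% of all tested genes.

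**Figure D1:**
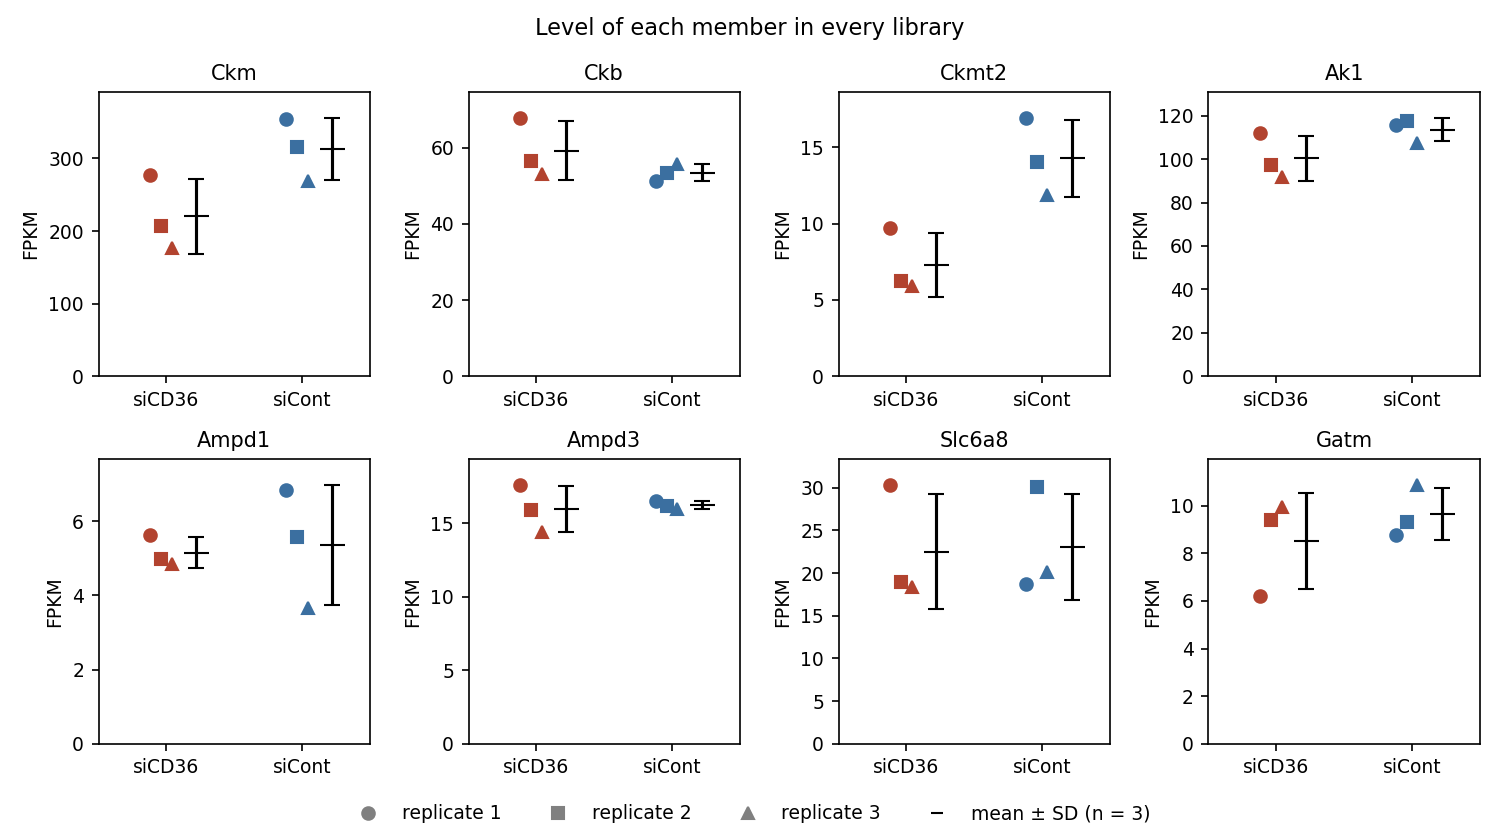
Level of 8 members in FPKM (linear axes from 0) in each library with siCD36 (red, left) and siCont (blue, right), with the marker shape giving the replicate number and the black bar the mean ± SD (n = 3). The groups are apart for Ckmt2, with 5.91 to 9.71 FPKM against 11.9 to 16.9 FPKM, and overlap for the other 7.

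Ckmt2 (ENSMUSG00000021622, chromosome 13 of GRCm38 from 91853387 to 91876885, minus strand) encodes the creatine kinase of sarcomeric mitochondria. Its level was 9.71, 6.21 and 5.91 FPKM in the siCD36 libraries, against 16.9, 14.0 and 11.9 FPKM in the siCont libraries. The lowest siCont library was above the highest siCD36 library (2-sided exact permutation test, p = 0.1, below which a design of 3 and 3 cannot go). The log2 fold change was -1.01 (SE 0.256, adjusted p = 0.0762 from edgeR), which corresponds to 49.8% of the siCont level (95% interval 32.5% to 76.2%, not adjusted for the number of genes). The raw counts behind it were 705 to 1087 with siCD36 and 1131 to 1717 with siCont. Ckmt2 fell in DESeq2 (log2 fold change -1.01, adjusted p = 0.00161) and in edgeR without siCD36 replicate 1 (-1.29, adjusted p = 0.0302). Over all alternatives that left out 1 library, edgeR's adjusted p was 0.0302 to 0.227. In bulk samples, fewer cells that express a gene and less of its RNA per cell cannot be told apart.

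Ckm (ENSMUSG00000030399, chromosome 7 from 19404776 to 19422841, plus strand) encodes the cytosolic creatine kinase of muscle, which is bound in part at the M-line of the sarcomere. It had 277, 207 and 177 FPKM in the siCD36 libraries, against 354, 316 and 268 FPKM in the siCont libraries. The highest siCD36 library, replicate 1, lay above the lowest siCont library, replicate 3, so that the groups overlapped. The log2 fold change was -0.54 (SE 0.208, adjusted p = 0.173 from edgeR), or 68.9% of the siCont level (95% interval 48.7% to 97.5%, not adjusted). It was -0.76 without siCD36 replicate 1 (adjusted p = 0.0538), and the adjusted p was 0.0538 to 0.377 with 1 library left out. The antisense gene A930016O22Rik overlaps Ckm and had a mean of 0.413 FPKM. Of the 50-base stretches in annotated Ckm transcripts, 10.8% occur in this gene as well, and the strand setting of the counts is not given in the sources used here.

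Ckb (ENSMUSG00000001270, chromosome 12 from 111669361 to 111672338, minus strand), the brain-type cytosolic creatine kinase of undifferentiated muscle cells and many other tissues, did not follow Ckm. It had 67.9, 56.7 and 53.2 FPKM with siCD36 and 51.2, 53.5 and 55.6 FPKM with siCont. The libraries other than siCD36 replicate 1 lay within 51.2 to 56.7 FPKM. Its log2 fold change was 0.12 (SE 0.109, adjusted p = 0.533 from edgeR, 95% interval -0.14 to 0.38) and -0.0073 without siCD36 replicate 1. Ckb shares 309 of its 3125 distinct 50-base transcript stretches with Gm12892.

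Ckmt1 (ENSMUSG00000000308, chromosome 2 from 121357714 to 121363737, plus strand), the mitochondrial creatine kinase that tissues other than striated muscle use, did not pass the filter. It had 4, 0 and 0 raw counts with siCD36 and 4, 0 and 0 with siCont (2-sided exact permutation test of CPM, p = 1). A count of 0 allows up to 3 counts in a library, at most 0.0527 CPM at these depths, which covers counting error only. This bound was taken on the raw library totals, without the TMM scaling of the other CPM. No difference in Ckmt1 was detectable at this depth. The 4 creatine kinases share no 50-base stretch with each other or with the other members in the annotated transcripts.

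**Figure D2:**
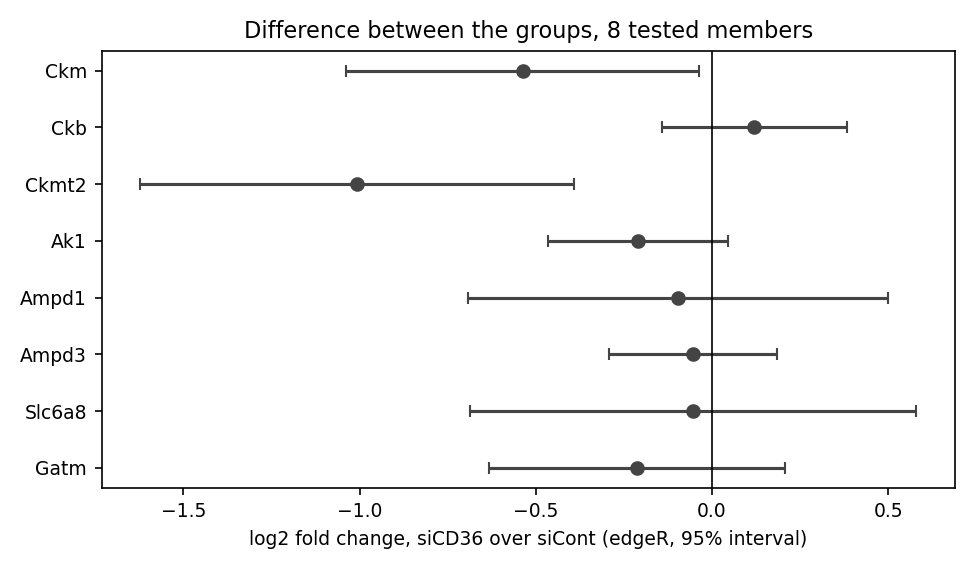
Log2 fold change of 8 tested members, siCD36 over siCont, with 95% intervals from edgeR that are not adjusted for the number of genes. The intervals of Ckmt2 and Ckm lie below 0, and those of the other 6 include 0.

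In these 6 libraries the shares of the creatine kinase transcripts differed between the groups. The summed level of the 4 isoforms was 355, 270 and 236 FPKM with siCD36 and 423, 383 and 336 FPKM with siCont, and these ranges overlapped. Ckm made up 76.6 ± 1.61% of the sum (SD, n = 3) with siCD36 and 82.0 ± 2.01% with siCont. The share of Ckb was 20.9 ± 1.72% with siCD36 and 14.2 ± 2.23% with siCont, and that of Ckmt2 was 2.51 ± 0.218% with siCD36 and 3.74 ± 0.243% with siCont. None of these 3 shares overlapped between the groups (2-sided exact permutation test, p = 0.1 for each, the lowest possible). Shares of 1 sum are not independent of each other. For single genes, the CPM of the groups did not overlap in 32.4% of all tested genes, in either direction. The ratio of Ckm to Ckb, which does not depend on the scaling of a library, was 4.08, 3.66 and 3.32 with siCD36 and 6.92, 5.90 and 4.82 with siCont. Every siCD36 library had a lower ratio than every siCont library, by a mean of -0.66 on the log2 scale (2-sided exact permutation test, p = 0.1, the lowest possible).

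Relative to Ckm, Ckmt2 was also lower with siCD36. The ratio of Ckmt2 to Ckm, chosen after the values were seen, was 0.0350, 0.0300 and 0.0335 with siCD36 and 0.0478, 0.0445 and 0.0443 with siCont. This is a difference of -0.48 on the log2 scale with no overlap of the groups (2-sided exact permutation test, p = 0.1, the lowest possible). Beside this and the measures below, the CPM of single genes did not overlap between the groups in 32.4% of all tested genes. Per 1000 FPKM of the 25 myotube markers, a measure chosen after the values were seen, Ckmt2 was at 0.557, 0.442 and 0.452 FPKM with siCD36 and 0.790, 0.750 and 0.699 FPKM with siCont. On the same measure Ckm was at 15.9, 14.8 and 13.5 FPKM with siCD36 and 16.5, 16.9 and 15.8 FPKM with siCont, where the groups overlap, as on the FPKM scale itself. Ckb and Ak1 ran the other way on this measure, without overlap, whereas both overlapped on the FPKM scale itself. The summed markers were at 13073 to 17428 FPKM with siCD36 and 17015 to 21457 FPKM with siCont. A gene with an unchanged level can therefore rise on this measure. Ckb was at 3.90, 4.03 and 4.07 FPKM with siCD36 and 2.39, 2.86 and 3.27 FPKM with siCont, and Ak1 at 6.42, 6.91 and 7.04 FPKM with siCD36 and 5.40, 6.28 and 6.31 FPKM with siCont. The ratio of Ak1 to Ckm, also chosen after the values were seen, was 0.404, 0.468 and 0.521 with siCD36 and 0.327, 0.372 and 0.400 with siCont, a difference of 0.34 on the log2 scale without overlap (2-sided exact permutation test for each of these 3 measures, p = 0.1, the lowest possible).

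**Figure D3:**
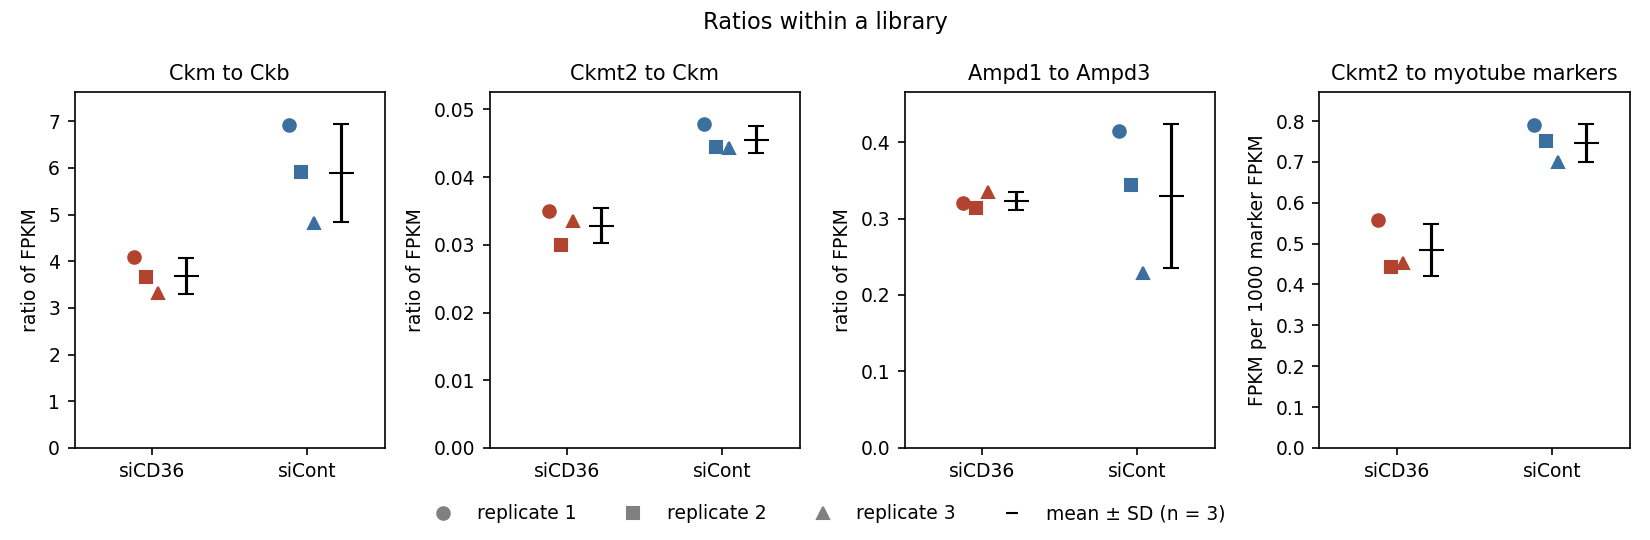
Ratios of FPKM within each library (linear axes from 0) for siCD36 (red, left) and siCont (blue, right), with the mean ± SD (n = 3) as black bars. The groups are apart for Ckm to Ckb (3.32 to 4.08 against 4.82 to 6.92), for Ckmt2 to Ckm and for Ckmt2 against the myotube markers, and overlap for Ampd1 to Ampd3.

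The myotube markers themselves had a median log2 fold change of -0.34. Of the 25, none rose and 3 fell by edgeR, namely Myh7 (-2.02, adjusted p = 8.47e-04), the slow myosin heavy chain, Myh3 (-0.62, adjusted p = 0.0210), the embryonic myosin heavy chain, and Mybpc2 (-2.34, adjusted p = 0.0253), the fast myosin-binding protein C. Their summed level was 17428, 14055 and 13073 FPKM with siCD36 and 21457, 18723 and 17015 FPKM with siCont. The highest siCD36 library lay above the lowest siCont library, the same libraries that overlapped for Ckm. Among the 25 myotube markers, 20 had a fold change below 0. For 9 of them every siCD36 library was below every siCont library, beside 16.3% of all tested genes on the scale of CPM. DESeq2 called 10 of the 25, where it called 14.2% of all tested genes. Over all tested genes edgeR called 2.2% higher and 3.06% lower, which stands beside the edgeR counts of every marker set here. Of 7 markers of cycling cells, 5 were tested and 2 rose, Ccna2 (1.02, adjusted p = 0.0166) and Mcm5 (1.00, adjusted p = 0.0414), with a summed level of 27.5 to 31.7 FPKM with siCD36 and 24.9 to 27.7 FPKM with siCont. The other 3 tested cycling markers were not called, 1 of them with a fold change below 0, and Mki67 and Ccnb1 were under the filter. Of 6 markers of satellite cells or undifferentiated myoblasts, 4 were tested, 1 rose (Myf5, 0.93, adjusted p = 0.0274 from edgeR) and none fell, with a summed level of 162 to 193 FPKM with siCD36 and 172 to 177 FPKM with siCont. Vcam1 was higher without overlap of the groups but did not pass (0.33, adjusted p = 0.145), Cdh15 (-0.10) and Itga7 (-0.05) overlapped, Pax7 had a mean of 0.0405 FPKM and Pax3 had no counts. Of 6 markers of fibroblasts or adipocytes, 4 were tested and none passed, with a summed level of 131 to 135 FPKM with siCD36 and 108 to 141 FPKM with siCont. Of 6 markers of macrophages or endothelium, only Tek was tested and it rose (1.15, adjusted p = 0.0216 from edgeR), with a summed level of 3.88 to 4.43 FPKM with siCD36 and 2.33 to 2.93 FPKM with siCont. The part of these markers in the levels of Ckm and Ckmt2 was not tested beyond the ratios above.

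Ak1 (ENSMUSG00000026817, chromosome 2 from 32621758 to 32635058, plus strand), the cytosolic adenylate kinase that is abundant in muscle, had 112, 97.2 and 92.0 FPKM in the siCD36 libraries and 116, 118 and 107 FPKM in the siCont libraries. The groups overlapped through siCD36 replicate 1. Its log2 fold change was -0.21 (SE 0.106, adjusted p = 0.273 from edgeR, 95% interval -0.47 to 0.05), and the interval reaches down to 72.4% of the siCont level.

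Both AMP deaminases had similar means in the 2 groups, with different precision. Ampd1 (ENSMUSG00000070385, chromosome 3 from 103074014 to 103099720, plus strand), the isoform of skeletal muscle, had 5.64, 4.99 and 4.83 FPKM with siCD36 and 6.85, 5.57 and 3.66 FPKM with siCont. The siCont libraries enclosed the siCD36 libraries on both sides. The log2 fold change was -0.10 (SE 0.248, adjusted p = 0.840 from edgeR), and its 95% interval, -0.69 to 0.50, spans levels between 61.9% and 141% of siCont. Ampd3 (ENSMUSG00000005686, chromosome 7 from 110768206 to 110812405, plus strand), the isoform first known from red blood cells, had 17.6, 15.9 and 14.4 FPKM with siCD36 and 16.5, 16.2 and 16.0 FPKM with siCont. Its log2 fold change was -0.05 (SE 0.0991, adjusted p = 0.779 from edgeR, 95% interval -0.29 to 0.18). Ampd3 overlaps Rnf141 on the other strand, which had a mean of 2.18 FPKM, and 5.28% of its 50-base transcript stretches occur in other genes. The ratio of Ampd1 to Ampd3 was 0.321, 0.313 and 0.335 with siCD36 and 0.415, 0.344 and 0.229 with siCont (2-sided exact permutation test, p = 1).

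The genes of creatine supply differed between libraries more than between groups. Slc6a8 (ENSMUSG00000019558, chromosome X from 73673150 to 73682502, plus strand), the creatine transporter, had 30.3, 18.9 and 18.3 FPKM with siCD36 and 18.7, 30.1 and 20.2 FPKM with siCont. One library of each group, siCD36 replicate 1 and siCont replicate 2, stood at about the same high level above the other 4. Its log2 fold change was -0.05 (SE 0.263, adjusted p = 0.919 from edgeR, 95% interval -0.69 to 0.58). It was -0.35 without siCD36 replicate 1 and 0.18 without siCont replicate 2. Gatm (ENSMUSG00000027199, chromosome 2 from 122594467 to 122611303, minus strand), which makes the precursor guanidinoacetate from arginine and glycine, had 6.21, 9.39 and 9.95 FPKM with siCD36 and 8.78, 9.31 and 10.9 FPKM with siCont. Only siCD36 replicate 1 lay below the siCont range. The log2 fold change was -0.21 (SE 0.174, adjusted p = 0.490 from edgeR, 95% interval -0.63 to 0.21) and -0.04 without this library.

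The library of siCD36 replicate 1 had the highest CPM of its group for 7 of the 8 tested members, and the lowest for Gatm. In the siCont group, replicate 1 was highest for 5 of 8 members and replicate 3 for 2. In both groups alike, 5 of the 8 members (Ckm, Ckmt2, Ak1, Ampd1 and Ampd3) were highest in replicate 1 and lowest in replicate 3. The values of Ckm, Ckmt2, Ak1 and the summed myotube markers were all highest in siCD36 replicate 1 within their group.

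None of the listed genes of creatine supply, adenylate and purine metabolism or ATP export passed edgeR, where 5.26% of all tested genes did. Counts at an unadjusted p under 0.05 stand beside 25.4% of all tested genes, and those in DESeq2 beside 14.2%. Among 11 genes of creatine supply and methyl donors, 10 were tested and 0 passed, with 4 at an unadjusted p under 0.05, 1 called by DESeq2 and 0 by limma. Their median log2 fold change was -0.09. Gamt, which completes creatine by methylation, averaged 52.6 ± 3.62 FPKM with siCD36, against 49.6 ± 2.69 FPKM with siCont (SD, n = 3 each, log2 fold change 0.05, adjusted p = 0.759 from edgeR). The smallest adjusted p-values were those of Asl, an enzyme of arginine synthesis (log2 fold change -0.36, adjusted p = 0.107), Odc1, which uses ornithine for polyamines (0.19, adjusted p = 0.132), and Shmt1, an enzyme of glycine and serine exchange (0.36, adjusted p = 0.157).

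Among 27 other adenylate kinases and genes of the purine nucleotide cycle and salvage, 19 were tested and 0 passed edgeR. There were 3 at an unadjusted p under 0.05, beside 25.4% of all tested genes, 2 called by DESeq2, beside 14.2%, and 0 by limma. The CPM of the groups did not overlap for 5 of the 19, beside 32.4% of all tested genes. The isozymes of adenylosuccinate synthase, which returns the product of AMP deaminase toward AMP, had differences of opposite sign. Adssl1, the muscle isozyme, had 53.7, 40.9 and 35.2 FPKM with siCD36 and 68.6, 66.2 and 64.6 FPKM with siCont. Its groups did not overlap, and the log2 fold change was -0.65 (SE 0.169, adjusted p = 0.0789 from edgeR). Adss, the isozyme of most other tissues, had 12.8, 14.6 and 14.1 FPKM with siCD36 and 10.6, 11.5 and 11.8 FPKM with siCont, again without overlap (log2 fold change 0.26, SE 0.0676, adjusted p = 0.0778 from edgeR). For Aprt, which salvages adenine, the difference was -0.29 on this scale (adjusted p = 0.107). Without siCD36 replicate 1, Adssl1 fell (-0.85, adjusted p = 0.0217 from edgeR) and Adss rose (0.30, adjusted p = 0.0438). With each of the other 5 libraries left out neither passed, with an adjusted p of 0.143 to 0.238 for Adssl1 and 0.149 to 0.263 for Adss.

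Among 14 genes of ATP export and mitochondrial contact sites, where mitochondrial creatine kinase sits, 13 were tested and 0 passed edgeR. There was 1 at an unadjusted p under 0.05, beside 25.4% of all tested genes, 1 called by DESeq2, beside 14.2%, and 0 by limma. Slc25a4, the adenine nucleotide carrier of muscle mitochondria, averaged 172 ± 12.9 FPKM with siCD36, against 172 ± 1.60 FPKM with siCont (SD, n = 3 each). Slc25a25, a carrier of ATP and phosphate, had the smallest adjusted p (log2 fold change -0.47, adjusted p = 0.108), followed by Slc25a3, the phosphate carrier (-0.19, adjusted p = 0.214), and Tspo, a protein of the outer membrane (-0.27, adjusted p = 0.311).

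Of 18 transcription factors known at the enhancers of muscle creatine kinase, 16 were tested, 1 rose and none fell by edgeR. Over all tested genes edgeR called 2.2% higher and 3.06% lower. At an unadjusted p under 0.05 there were 4, beside 25.4% of all tested genes. The CPM of the groups did not overlap for 6, beside 32.4%, and DESeq2 called 2, beside 14.2%. Myf5, a myogenic factor of the myoblast stage, had 7.11, 7.51 and 7.35 FPKM with siCD36 and 3.37, 3.28 and 4.68 FPKM with siCont (log2 fold change 0.93, SE 0.145, adjusted p = 0.0274 from edgeR). Its groups did not overlap, and its adjusted p was 0.0361 to 0.116 with 1 library left out, above 0.05 without siCD36 replicate 2 (0.116), siCD36 replicate 3 (0.0826), siCont replicate 1 (0.0790) and siCont replicate 2 (0.111). Myod1 and Myog, the myogenic factors that start differentiation, had log2 fold changes of 0.0066 (adjusted p = 0.975) and 0.02 (adjusted p = 0.895). Tead4 (-0.52, adjusted p = 0.0858) and Six4 (0.38, adjusted p = 0.134) were next by adjusted p. Tead1, also named after its values were seen, had 12.2, 1.28 and 1.05 FPKM with siCD36 and 0.603, 2.66 and 0.909 FPKM with siCont (log2 fold change 1.81, adjusted p = 0.35 from edgeR), so that its high mean came from siCD36 replicate 1 alone. Mef2c, named in the same way, was low in that library. It had 0.426, 4.01 and 5.24 FPKM with siCD36 and 4.71, 5.42 and 5.28 FPKM with siCont (log2 fold change -0.72, adjusted p = 0.592 from edgeR). Myf6, a myogenic factor of differentiated fibers chosen here after its values were seen, lay just under the filter with 0.0578, 0.228 and 0.282 FPKM with siCD36 and 2.21, 2.32 and 0.784 FPKM with siCont. With no filter its log2 fold change was -3.24 (adjusted p = 0.0680 from edgeR).

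**Figure D4:**
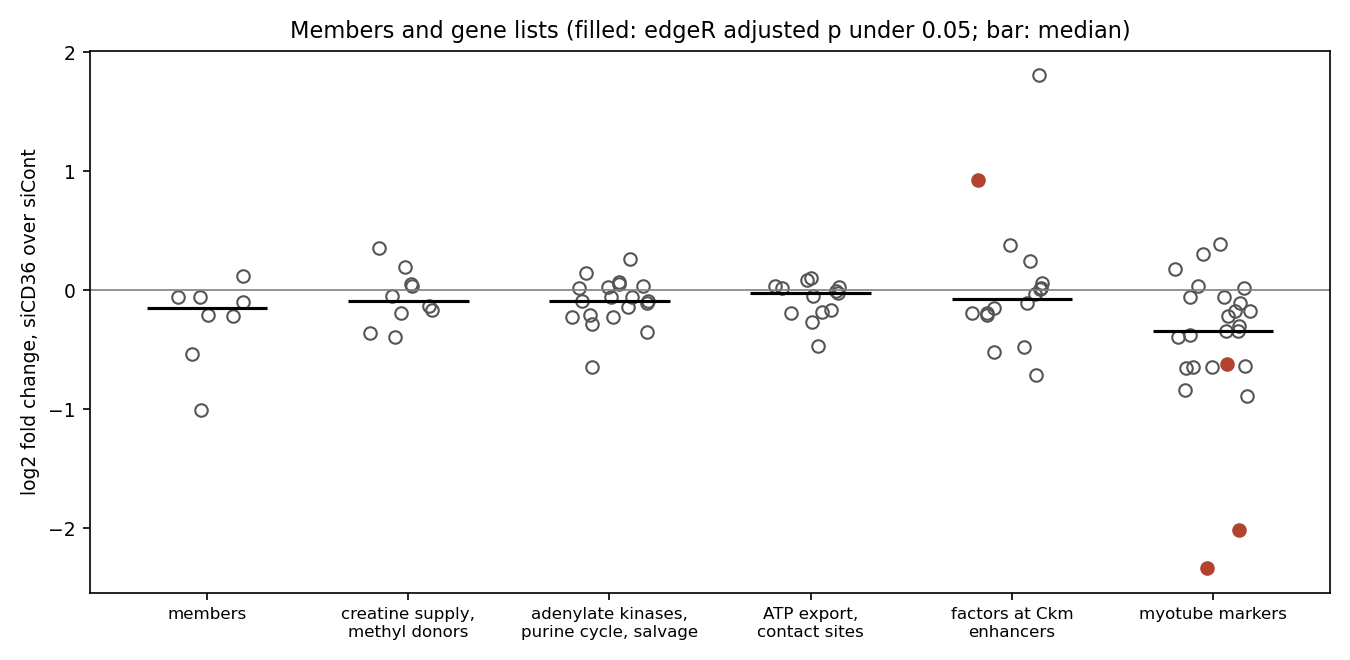
Log2 fold change, siCD36 over siCont, of the tested members and of the tested genes in 4 lists and the myotube markers, with 1 circle per gene, filled at an edgeR adjusted p under 0.05, and a bar at the median. The filled circles are Myf5 at 0.93 and the myotube markers Myh3, Myh7 and Mybpc2, and the highest open circle is Tead1 at 1.81.

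The genes whose pattern over the 6 libraries was most like that of Ckm were Cbr2, a carbonyl reductase, Mustn1, a small protein of muscle and bone, and Shisa4. Likeness was measured as the root-mean-square difference of log2 CPM, centred on each gene's mean, over 6240 genes that averaged 5 FPKM or more and carry an established symbol. It was 0.0370 for Cbr2, 0.0430 for Mustn1 and 0.0520 for Shisa4, where Ckm itself varied by 0.374 around its mean. Their log2 fold changes were -0.51, -0.51 and -0.60, and none passed edgeR (adjusted p = 0.177, 0.148 and 0.115). For Ckmt2, added after the values were seen, the nearest genes were Pygm, the glycogen phosphorylase of muscle (0.0794), Casq1, the calcium-binding protein of the fast sarcoplasmic reticulum (0.0974), and Cacna2d1, a subunit of the calcium channel, where Ckmt2 varied by 0.578. Pygm fell (log2 fold change -1.05, adjusted p = 0.0471 from edgeR), while Casq1 (-0.83, adjusted p = 0.0743) and Cacna2d1 (-0.82, adjusted p = 0.0792) did not pass. The likeness measure includes the difference between the groups. Similar fold changes of the genes nearest to Ckm and to Ckmt2 therefore follow from their choice and are not separate results. The difference between the patterns of Ckm and Ckmt2 was 0.233.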

How the data were processed

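RNA-seq of 6 samples, 3 with siCD36 and 3 with siCont, was analysed, with groups and replicate numbers from the sample labels. Per the methods, reads were aligned with HISAT 2.0 and FPKM computed with StringTie. The deposited table gives raw counts per gene, which the authors had not normalized, and FPKM, which the authors had scaled by length and depth, with 0.0001 for genes without reads. Counting tool, annotation, strand and build were not given in the sources used here. Positions are those of the table, of which 94.7% equal GENCODE M21 (GRCm38), including all 9 members. Promoters are from RefSeq (GRCm38.p6).

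The 11796 genes that averaged 1 FPKM or more were fitted with edgeR 4.0.16 in R 4.3.3 (TMM, glmQLFit, glmQLFTest, condition as the only term), with Benjamini-Hochberg adjustment over all of them. Standard errors (SE) were derived from F as |log2 fold change| / sqrt(F). CPM are TMM-scaled. Totals of 56907806 to 71878709 counts leave counting error small for every member but Ckmt1. The 9 members and the gene lists were chosen with earlier results of these data known. Besides the members, the rule for named genes took Cd36, of each list the genes at an adjusted p under 0.05 and the 3 with the smallest, and the 3 genes most like Ckm. Gamt, Slc25a4, Myod1, Myog, Myf6, Tead1, Mef2c, marker genes and the neighbours of Ckmt2 were named after their values were seen. Alternatives were other scalings, filters and variance models, DESeq2 1.42.0, limma 3.58.1, a replicate block and each library left out. On counts simulated for this comparison over 11796 genes, edgeR recovered 6 of 50 genes changed 1.5-fold and 41 of 50 changed 2-fold. The simulated counts carried only the spread typical of a gene's level, so this recovery need not hold for genes that vary more.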

Additional observations from a re-analysis of the deposited data

How the results depend on the processing

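The direction of Ckm, Ckmt2, Ak1 and Gatm was the same under every alternative run. Ckmt2 passed the threshold in DESeq2 (-1.01), without siCD36 replicate 1, and with the replicate block (-1.03, adjusted p = 0.0485). With 1 library left out, the log2 fold change was -1.29 to -0.83 for Ckmt2 and -0.76 to -0.39 for Ckm, and changed sign for Ckb (-0.0073 to 0.20), Ampd1 (-0.32 to 0.16), Ampd3 (-0.15 to 0.026) and Slc6a8 (-0.35 to 0.18), none of which passed. The number of members called was 0, and it was 1 in DESeq2, 1 with the replicate block and 0 to 1 with 1 library left out. List genes called in DESeq2 were 1 for creatine supply, 2 for adenylate kinases and purine genes, 1 for ATP export and 2 for the transcription factors, and with 1 library left out they were 0 to 2, 0 to 1 and 0 to 2 for the last 3 lists. With the replicate block no transcription factor was called (0), since Myf5 had an adjusted p of 0.0596 there at a log2 fold change of 0.94. Over all genes, 260 were called higher and 361 lower, and this became 116 and 211 without a filter, 768 and 909 in DESeq2 and 56 and 143 with the replicate block. With 1 library left out it was 5 to 431 higher and 15 to 650 lower, the most without siCD36 replicate 1 and the fewest without siCD36 replicate 2. The cause was not tested, and fits with fewer samples can lose calls for that reason alone. The log2 ratio of Ckm to Ckb was -0.80 to -0.54 and that of Ampd1 to Ampd3 -0.23 to 0.20 in the same way. Over all tested genes, the deviations of same-numbered samples correlated in 1 pair of 3 at most (0.14, -0.03 and 0.04), so the numbers were not read as pairs, although 5 of the 8 tested members were highest in replicate 1 and lowest in replicate 3 of both groups. The ratio of Ckmt2 to Ckmt1 could not be computed with Ckmt1 at 0 in 4 libraries.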
